A study of Mus musculus with 3 samples.

Results

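The 48 matrix glycoprotein and proteoglycan genes described here were found by their symbols among the 54532 genes of the deposited mouse tables, and each symbol matched 1 gene. They encode secreted proteins that surround cells and are not collagens. The RNA came from adult Myh6-mCherry mice, in which the Myh6 promoter, active in cardiomyocytes, drives the red reporter mCherry. MICFs are cardiac fibroblasts taken from these mice 5 days after myocardial infarction and kept in culture without virus. GMTMS-iCMs are induced cardiomyocytes made from MICFs with viruses for Gata4, Mef2c, Tbx5, Myocd and Sall4, and GMTMM-iCMs are those of a cocktail with Mesp1 in place of Sall4. Both cocktails were induced for 4 weeks in medium with 1 µg/ml doxycycline, and cells positive for mCherry were sorted. For each cocktail 5 sorted samples were mixed into 1 library, because few cells were positive. A sort by mCherry is not stated for MICFs, and the 4-week induction is stated for the cocktails. Sorting, transduction, time in culture and medium thus cannot be told apart in any comparison with MICFs. There was 1 library per condition, hence no replicate error and no test between conditions.

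Before the matrix genes were compared, the delivered factors were checked against the labels. Sall4 was counted 0 times in MICFs, 1190 times in GMTMS-iCMs and 1060 times under the label GMTMM, a cocktail that should lack it. Mesp1, which that cocktail should hold, had 0 counts in all 3 libraries. The factors counted thus went against the label, and this library is called the GMTMM-labelled library throughout. Total counts were 11861773, 10624118 and 11904484 in MICFs, GMTMS-iCMs and the GMTMM-labelled library, and a count of 0 allows up to 3 counts, or 0.253, 0.282 and 0.252 CPM. Cardiomyocyte markers (10 genes) took 0.000801%, 0.335% and 0.125% of the counts, in the same order, and 4 of the 10 were at 0 in MICFs. Macrophage markers (12 genes) took 2.03%, 3.13% and 1.55%, and Lyz2, the lysozyme of macrophages, had FPKM of 6135, 11353 and 5495, so the libraries labelled as fibroblasts or cardiomyocytes all held abundant macrophage transcripts.

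Matrix glycoproteins join collagen, elastin and cells into a network, and proteoglycans add sugar chains that bind water and growth factors. In the heart, fibroblasts make most of the interstitial matrix, and after infarction they turn to the matricellular proteins of a healing scar. Cardiomyocytes lie in a basement membrane of laminins, nidogens, collagen IV and perlecan. The 48 genes fall by role into adhesive and matricellular proteins (13 genes), small leucine-rich proteoglycans with versican (8), elastic fibre and microfibril proteins (12), basement membrane proteins (9) and other secreted glycoproteins (6).

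Promoter sequence was available for 31 of the 48 genes (38 promoters, each 300 bases, from 250 before to 50 after a start; RefSeq, GRCm38.p6). Those of 5 genes are printed because the results below turn on them. Prelp (chr1:133921352-133921651, minus strand) was the gene with the largest difference between GMTMS-iCMs and MICFs. Tnc (chr4:64046966-64047265, minus strand) was the adhesive gene with the largest difference, and Postn (chr3:54360857-54361156, plus strand) passed the limit in opposite directions in both transduced libraries. Ecm1 (chr3:95739520-95739819, minus strand) and Lama2 (chr10:27616893-27617192, minus strand) were among those that stayed closest to MICFs, and the printed start of Lama2 is 2816 bases from the gene start in the deposited table. Capitals mark TATAAA (the core of a TATA box), the AP-1 site TGANTCA and the CArG box, the site of serum response factor, for which Myocd is a cofactor.
Prelp: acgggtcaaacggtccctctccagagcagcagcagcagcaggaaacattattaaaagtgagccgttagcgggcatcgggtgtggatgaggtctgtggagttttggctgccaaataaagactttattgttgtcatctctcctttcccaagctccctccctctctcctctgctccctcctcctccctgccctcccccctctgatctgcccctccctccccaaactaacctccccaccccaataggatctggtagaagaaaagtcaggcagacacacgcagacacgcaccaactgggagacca
Tnc: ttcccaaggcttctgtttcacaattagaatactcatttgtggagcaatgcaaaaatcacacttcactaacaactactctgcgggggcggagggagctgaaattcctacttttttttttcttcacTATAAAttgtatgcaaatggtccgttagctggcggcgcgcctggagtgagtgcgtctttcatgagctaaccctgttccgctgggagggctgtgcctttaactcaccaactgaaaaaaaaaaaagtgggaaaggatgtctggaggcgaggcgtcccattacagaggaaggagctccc
Postn: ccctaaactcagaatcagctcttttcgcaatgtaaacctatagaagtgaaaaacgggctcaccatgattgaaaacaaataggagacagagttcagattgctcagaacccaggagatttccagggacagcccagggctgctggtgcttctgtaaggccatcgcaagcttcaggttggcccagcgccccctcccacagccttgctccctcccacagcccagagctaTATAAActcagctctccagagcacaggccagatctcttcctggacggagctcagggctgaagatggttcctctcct
Ecm1: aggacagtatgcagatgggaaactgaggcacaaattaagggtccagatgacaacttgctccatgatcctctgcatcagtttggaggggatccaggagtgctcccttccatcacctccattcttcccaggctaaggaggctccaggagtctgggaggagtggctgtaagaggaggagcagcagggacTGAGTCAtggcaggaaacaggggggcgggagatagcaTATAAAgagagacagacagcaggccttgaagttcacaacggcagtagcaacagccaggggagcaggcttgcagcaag
Lama2: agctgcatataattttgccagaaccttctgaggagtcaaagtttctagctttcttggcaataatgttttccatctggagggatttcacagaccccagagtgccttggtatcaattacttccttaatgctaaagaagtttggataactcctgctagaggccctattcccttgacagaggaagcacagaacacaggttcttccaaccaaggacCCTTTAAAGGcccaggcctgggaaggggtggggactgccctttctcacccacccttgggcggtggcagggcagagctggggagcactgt

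Motifs were searched on both strands. TATAAA lay from -26 to -21 of the start in Postn, from -27 to -22 in Ecm1 and from -126 to -121 in Tnc, and Ecm1 also held the AP-1 site from -64 to -58. A CArG box lay from -39 to -30 in Lama2. The Prelp promoter held none of the motifs searched. TATAAA was found in 7 of the 38 member promoters (18.4%) against 13.6% of all 32851 promoters. A CArG box was found in 1 (2.63% against 1.63%) and TGANTCA in 3 (7.89% against 7.81%). The GATA motif AGATAA was found in 1 (2.63% against 11.2%), the TEAD motif GGAATG in 5 (13.2% against 14.7%) and the E-box CACGTG in 2 (5.26% against 7.15%). GGGCGG, the GC box, was found in 23 (60.5% against 35.7%), in promoters of 20 genes. It also lies, unmarked, in the printed windows of Tnc, Ecm1 and Lama2. Median GC content was 55.3% with 1 promoter per member, against 52.7% over all promoters, and the GC box counts were not adjusted for it. These matches describe the printed windows and are not sites of binding.

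The first question was how matrix transcripts differ between sorted GMTMS-iCMs and the fibroblasts they came from. As a share of all counts, the 48 genes took 2.38% in MICFs (exact Clopper-Pearson 95% interval 2.37 to 2.38), against 0.400% in GMTMS-iCMs (0.396 to 0.404) and 3.32% in the GMTMM-labelled library (3.31 to 3.33). GMTMS-iCMs thus held the smallest share and the GMTMM-labelled library the largest. The intervals cover counting error only, here and below, since reads carry no molecular identifiers. In MICFs 10 of the genes had FPKM (fragments per kilobase of gene, scaled for library size) of at least 100, against 2 in GMTMS-iCMs and 14 in the GMTMM-labelled library. The median FPKM of the 48 genes was 30.8, 5.82 and 47.0, in the same order, and the median rank among all genes was 1288, 6269 and 1104.

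**Figure D1:**
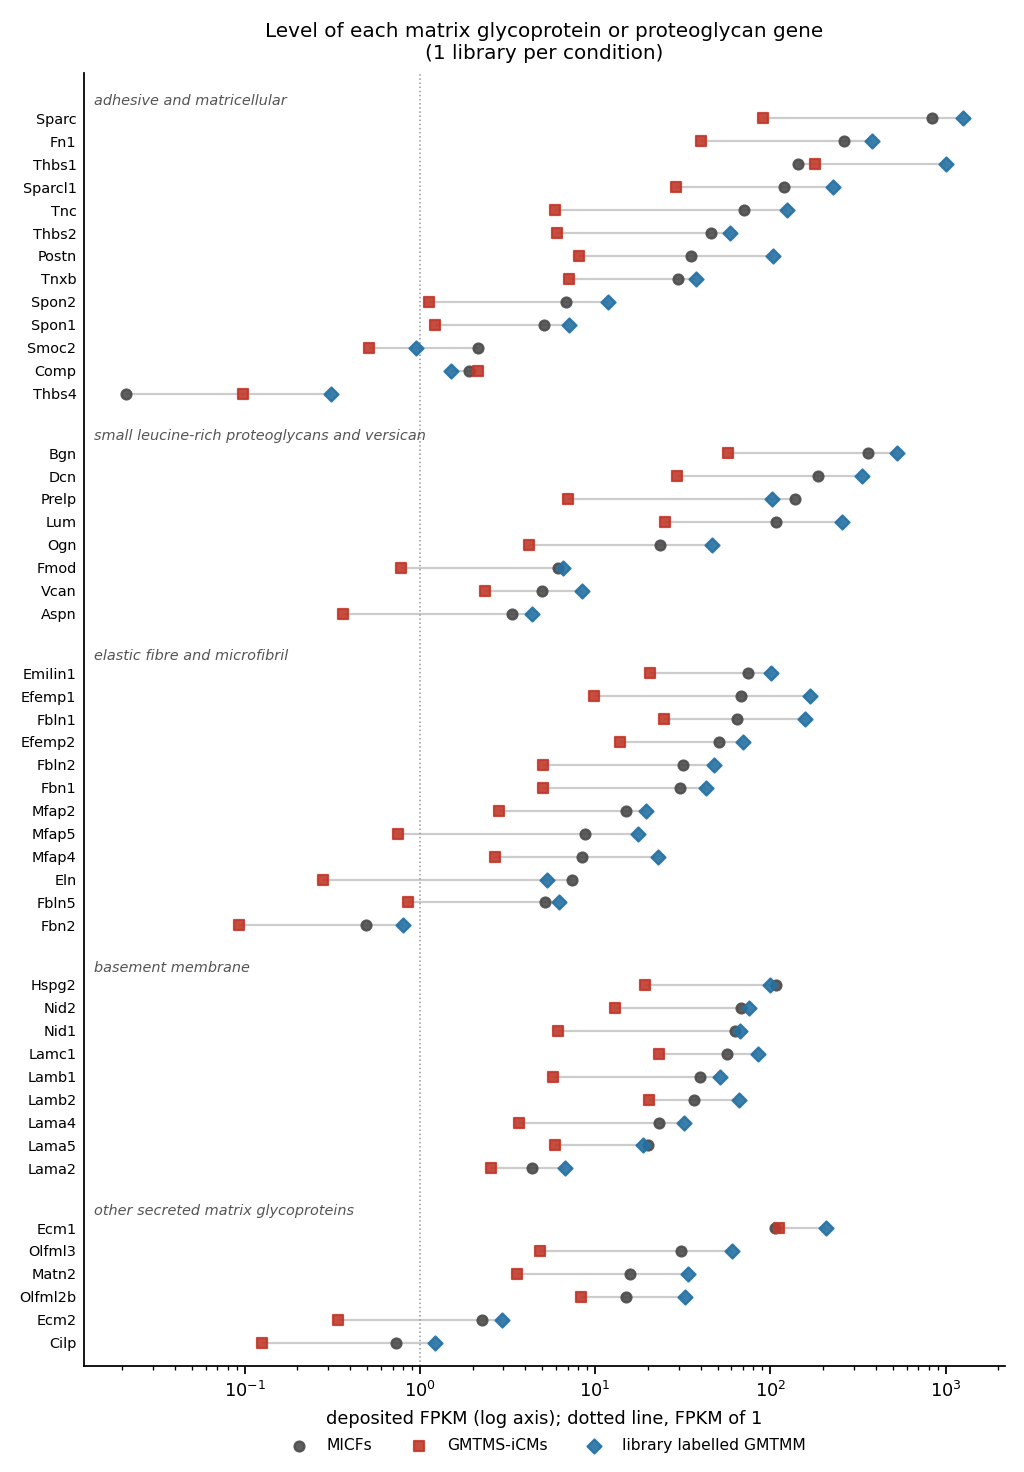
Deposited FPKM of each of the 48 genes on a log axis, grouped by role, with a circle for MICFs, a square for GMTMS-iCMs and a diamond for the GMTMM-labelled library (1 library each). The square lies left of both other points for 44 genes, and Thbs1, Ecm1, Comp and Thbs4 are the exceptions.

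Differences were taken on the log2 scale of quantile-normalized FPKM with a pseudocount of 1, and a gene was counted as lower or higher when the difference was over 1. This scale understates the change of genes with low FPKM. For members with high FPKM, quantile normalization moved differences from MICFs downward. In GMTMS-iCMs Fn1 differed by -3.30 against a log2 FPKM ratio of -2.71, and Ecm1 by -0.61 against 0.08. Of the 48 genes, 46 reached FPKM of 1 in some library, and Thbs4 and Fbn2 did not. In GMTMS-iCMs 38 of the 46 were lower than in MICFs, 0 were higher and 8 were within the limit. Among all 13919 genes tested, 10.7% were lower and 12.1% were higher. The median difference was -2.28 for the 46 genes and -0.04 for all genes tested. The differences ranged from -4.57 for Prelp to 0.27 for Comp. Ecm2 (-1.18) lay just past the limit and Olfml2b (-0.96) just short of it. Of the 8 genes within the limit, Smoc2 passed it in 6 of 8 scalings of the data, Cilp in 5, Vcan in 4, Olfml2b in 3 and Lama2 in 2, while Thbs1, Ecm1 and Comp passed it in 0. Some of the 8 scalings are close to each other, so here and below they are not 8 separate checks. As a ratio of deposited FPKM, the median gene was 5.59-fold lower. In bulk RNA, fewer cells of a type and less RNA per cell cannot be told apart. The study had displayed a set of fibroblast genes on these libraries that included Sparc and Olfml2b, so their direction is not independent of that choice. By quantitative RT-PCR it had also reported Postn and collagens as lower in GMTMS-iCMs than in MICFs, so the direction of Postn was known before.

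**Figure D2:**
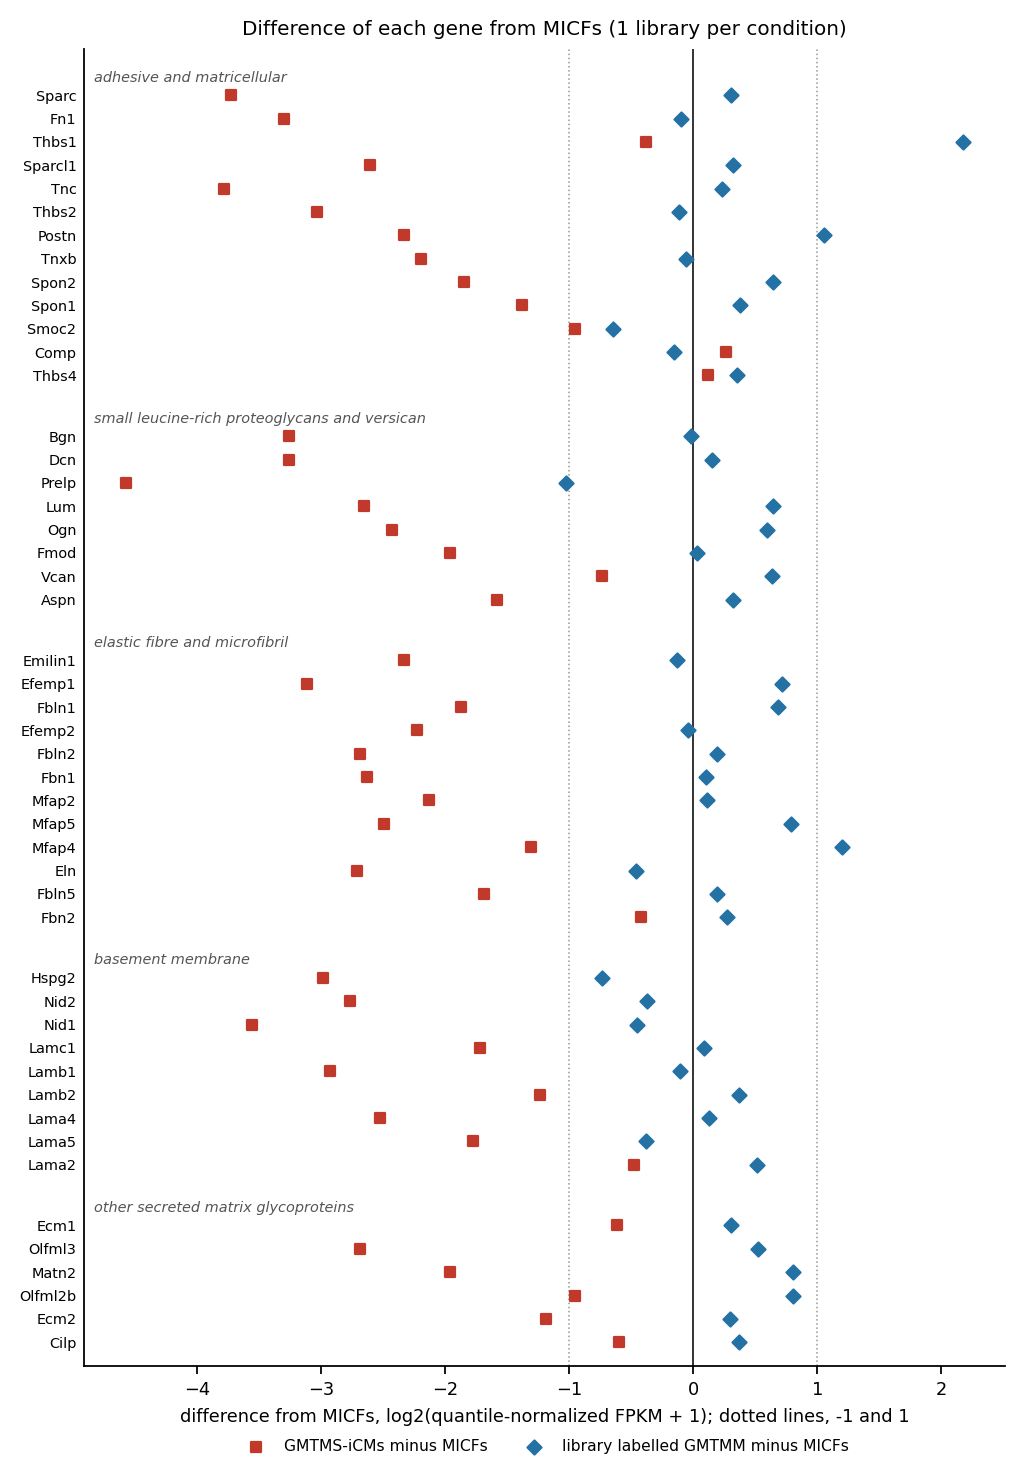
Difference of each gene from MICFs on the log2 scale of quantile-normalized FPKM plus 1, as squares for GMTMS-iCMs and diamonds for the GMTMM-labelled library, with dotted lines at -1 and 1. Among the 46 genes tested, 38 squares lie left of -1, while 42 of the diamonds lie between the lines.

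Among the adhesive and matricellular genes, 9 of the 12 tested were lower in GMTMS-iCMs than in MICFs, 0 were higher, and the median difference was -2.26. Sparc (osteonectin, a collagen-binding matricellular protein; ENSMUSG00000018593) had FPKM of 832 in MICFs, against 91.1 in GMTMS-iCMs and 1256 in the GMTMM-labelled library. Its rank among all genes went from 25 in MICFs to 573 in GMTMS-iCMs. Fn1 (fibronectin, the adhesive scaffold on which other matrix is laid) had FPKM of 263, 40.2 and 378, and was 6.53-fold lower in GMTMS-iCMs than in MICFs (95% interval 6.33 to 6.73). Tnc (tenascin C, an injury-induced matricellular protein; ENSMUSG00000028364, chromosome 4 from 63959785 to 64047015) had FPKM of 71.0, 5.94 and 125. It was lowest in GMTMS-iCMs, where it was 11.9-fold below MICFs (10.8 to 13.2). Sparcl1, a relative of Sparc also made by vessel cells, had FPKM of 120, 29.0 and 229 (4.14-fold lower in GMTMS-iCMs, 3.84 to 4.47).

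Postn (periostin, the marker of activated cardiac fibroblasts; ENSMUSG00000027750, chromosome 3 from 54361109 to 54391037) had FPKM of 35.4 in MICFs, against 8.08 in GMTMS-iCMs and 103 in the GMTMM-labelled library. It was lower in GMTMS-iCMs than in MICFs (-2.33, 4.38-fold, 4.03 to 4.76). Thbs2, an inhibitor of vessel growth, had FPKM of 45.8, 6.07 and 59.0 (difference -3.03), and Tnxb (tenascin X) had 29.8, 7.09 and 37.7 (-2.19). For Tnxb, 6.63% of the 50-base words of its transcript also occur in another gene, so its counts are less certain. Spon1 and Spon2, the spondins, were lower at low levels, with FPKM of 5.08, 1.22 and 7.09 for Spon1 (-1.38) and 6.86, 1.13 and 11.9 for Spon2 (-1.84).

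Thbs1 (thrombospondin 1, which can activate latent TGF-beta; ENSMUSG00000040152, chromosome 2 from 118111876 to 118127133) stood apart from these. It had 12510, 10126 and 71029 counts and FPKM of 143, 180 and 1001. GMTMS-iCMs and MICFs were close to each other, and the GMTMM-labelled library was far above both. The difference between GMTMS-iCMs and MICFs was -0.38, within the limit, and its sign turned with the scaling (-0.39 to 0.33 over 8 scalings). Smoc2 (a calcium-binding matricellular protein) had FPKM of 2.16, 0.511 and 0.948 (-0.95), and Comp (cartilage oligomeric matrix protein) had 1.90, 2.14 and 1.50 (0.27, and -0.34 to 0.38 over the scalings). The FPKM ratio of Comp had an interval of 0.793 to 1.60, which holds 1, so a difference was not detectable at this depth. Thbs4 was near the floor with 1, 3 and 12 counts.

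All but 1 of the 8 small leucine-rich proteoglycans and versican were lower in GMTMS-iCMs than in MICFs (median -2.54). Prelp (a collagen-binding leucine-rich protein; ENSMUSG00000041577, chromosome 1 from 133910304 to 133921414) had counts of 7151 (MICFs), 235 (GMTMS-iCMs) and 4296 (the GMTMM-labelled library), or FPKM of 137, 7.00 and 102. It was 19.6-fold lower in GMTMS-iCMs than in MICFs (17.2 to 22.5), and its rank went from 208 to 5640. Exons of another gene on the opposite strand, Gm15851, cover 9.68% of its exon bases, and how strand was counted is not given in the sources used here. Bgn (biglycan) had FPKM of 361, 57.4 and 530 and Dcn (decorin) 188, 29.2 and 332; both bind collagen fibrils and TGF-beta. Bgn was 6.29-fold (6.07 to 6.52) and Dcn 6.44-fold (6.12 to 6.79) below MICFs in GMTMS-iCMs.

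Lum (lumican, a regulator of fibril spacing) had FPKM of 107, 25.1 and 258, and was 4.29-fold lower in GMTMS-iCMs (3.92 to 4.69). Ogn (osteoglycin) had FPKM of 23.5, 4.20 and 46.2 (-2.43), and Fmod (fibromodulin) had 6.14, 0.782 and 6.53 (-1.96). Aspn (asporin) rested on 113, 8 and 120 counts, and its fold of 9.12 had a wide interval (4.47 to 21.6). The exception was Vcan (versican, a large hyaluronan-binding proteoglycan of early scar and embryonic heart), with FPKM of 4.97, 2.35 and 8.42. Its difference of -0.74 was within the limit, although the FPKM ratio was 2.11-fold lower (1.86 to 2.40).

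Elastic fibres are elastin cores laid on fibrillin microfibrils with the help of fibulins. In this group all 11 genes tested were lower in GMTMS-iCMs than in MICFs, from -1.31 for Mfap4 to -3.11 for Efemp1, with a median of -2.33. Eln (elastin; ENSMUSG00000029675, chromosome 5 from 134702593 to 134747323) had 855, 21 and 505 counts in the same order. Its FPKM was 7.34, 0.279 and 5.34, and its ratio was the lowest of the 48 genes, 26.3-fold below MICFs (17.1 to 42.7). Fbn1 (fibrillin 1) had FPKM of 30.7, 5.03 and 43.0 (6.09-fold lower, 5.59 to 6.66), but 20.1% of its exon bases lie opposite exons of Gm9913. Fbn2, the fibrillin of the embryo, had 74, 9 and 98 counts.

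The fibulins were all lower as well. Efemp1 (fibulin 3) had FPKM of 68.3, 9.83 and 168, and Fbln1 (fibulin 1) had 64.3, 24.8 and 157. In both, the GMTMM-labelled library was highest and GMTMS-iCMs lowest. Fbln1 was lower in GMTMS-iCMs by less (2.59-fold, 2.42 to 2.78) than Efemp1 (6.95-fold, 5.98 to 8.12). Efemp2 (fibulin 4) had FPKM of 51.0, 13.9 and 70.0, Fbln2 31.7, 5.02 and 47.8, and Fbln5 5.20, 0.857 and 6.26. Emilin1 (an elastin-linked glycoprotein of vessels) had FPKM of 74.9, 20.5 and 101. Of the microfibril-associated proteins, Mfap5 differed most, with 455, 25 and 733 counts (11.7-fold lower in GMTMS-iCMs, 7.86 to 18.3). Mfap2 had FPKM of 15.0, 2.85 and 19.5, and Mfap4 8.46, 2.69 and 22.8.

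Among the basement membrane genes, 8 of 9 were lower in GMTMS-iCMs than in MICFs, 0 were higher, and the median difference was -2.52. Nid1 (nidogen 1, which links laminin to collagen IV) had FPKM of 62.8, 6.11 and 66.8, and was 10.3-fold lower in GMTMS-iCMs (9.29 to 11.4). Nid2, its relative, had FPKM of 67.7, 13.0 and 75.9 (5.22-fold, 4.80 to 5.68), with 8.45% of its exon bases opposite Rtraf. Hspg2 (perlecan, the large heparan sulfate proteoglycan of basement membranes) had FPKM of 108, 19.4 and 99.4 (5.57-fold, 5.35 to 5.81). Against MICFs, the FPKM ratios of the GMTMM-labelled library were 1.06 for Nid1, 1.12 for Nid2 and 0.920 for Hspg2, while their quantile-normalized differences were -0.45, -0.37 and -0.74, all within the limit.

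Laminins are trimers of an alpha, a beta and a gamma chain, and the chains did not differ from MICFs by the same amount. Lama4 (the alpha chain common in vessels) had FPKM of 23.1, 3.69 and 32.0, and Lamb1 had 39.8, 5.72 and 51.5. Both were over 6-fold lower in GMTMS-iCMs than in MICFs, by 6.25-fold (5.65 to 6.94) and 6.96-fold (6.36 to 7.62). Lama2 and Lamb2, chains of laminins around muscle fibres, were lower by less. Lama2 (ENSMUSG00000019899, chromosome 10 from 26980036 to 27619758) had FPKM of 4.38, 2.56 and 6.76 (1.71-fold, 1.52 to 1.93), and its difference of -0.48 was within the limit. Lamb2 had FPKM of 36.7, 20.4 and 66.5 (1.80-fold, 1.68 to 1.93). Its difference of -1.24 passed the limit in 5 of 8 scalings (-1.32 to -0.82). Lamc1, the gamma chain shared by most laminins, had FPKM of 56.4, 23.2 and 85.5 (2.42-fold, 2.30 to 2.56), and Lama5 had 19.9, 5.93 and 18.7 (3.36-fold, 3.08 to 3.67).

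Ratios of the deposited FPKM of 2 genes within a library do not depend on the library size used, although quantile normalization would change them. For each unit of Lama4 FPKM there was 0.190 of Lama2 in MICFs (0.177 to 0.203), against 0.692 in GMTMS-iCMs (0.601 to 0.797) and 0.211 in the GMTMM-labelled library (0.198 to 0.224). The ratio of Lamb2 to Lamb1 was 0.923 (0.884 to 0.964), 3.57 (3.22 to 3.97) and 1.29 (1.24 to 1.34), in the same order. GMTMS-iCMs were highest in both ratios, beyond the counting error of the other libraries. Nid2 to Nid1 was 1.08, 2.12 and 1.14, whereas Bgn to Dcn was 1.92 (1.89 to 1.96) in MICFs and 1.97 (1.85 to 2.09) in GMTMS-iCMs, with overlapping intervals, and 1.60 (1.57 to 1.62) in the GMTMM-labelled library.

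Of the other secreted glycoproteins, 3 of 6 were lower in GMTMS-iCMs than in MICFs (median -1.07). Ecm1 (extracellular matrix protein 1, an inhibitor of matrix metalloproteinase 9; ENSMUSG00000028108, chromosome 3 from 95734147 to 95739569) had FPKM of 106, 113 and 207. MICFs and GMTMS-iCMs were nearly level and the GMTMM-labelled library was highest. The difference of -0.61 for GMTMS-iCMs was within the limit, and over 8 scalings it ran from -0.62 to 0.08. Olfml3 (an olfactomedin-like glycoprotein) had FPKM of 30.9, 4.82 and 60.4 (-2.69), and Matn2 (matrilin 2) had 15.7, 3.58 and 33.9 (-1.96). Olfml2b had 15.1, 8.31 and 32.5. Ecm2 (2.25, 0.341 and 2.93) and Cilp (0.735, 0.127 and 1.23) had low FPKM, and Cilp rested on 45, 5 and 61 counts.

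The make-up of the remaining matrix transcripts also differed. Sparc, Bgn and Fn1 led in MICFs, while Thbs1, Ecm1 and Sparc led in GMTMS-iCMs and Sparc, Thbs1 and Bgn in the GMTMM-labelled library. Thbs1 made up 4.28% of the summed FPKM of the 48 genes in MICFs, against 22.0% in GMTMS-iCMs and 16.7% in the GMTMM-labelled library, and Sparc made up 24.9%, 11.2% and 20.9%. Ecm1 made up 3.18%, 13.8% and 3.45%, so its share was high in GMTMS-iCMs alone among these 3 libraries. Prelp made up 4.11%, 0.859% and 1.70%. The ratio of Thbs1 to Thbs2 was 3.13 in MICFs (3.02 to 3.24), against 29.6 in GMTMS-iCMs (26.7 to 32.8) and 17.0 in the GMTMM-labelled library (16.5 to 17.5). By role, the adhesive genes made up 46.5%, 45.7% and 53.5% of the summed FPKM, and the leucine-rich proteoglycans with versican 24.9%, 15.5% and 21.5%.

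**Figure D3:**
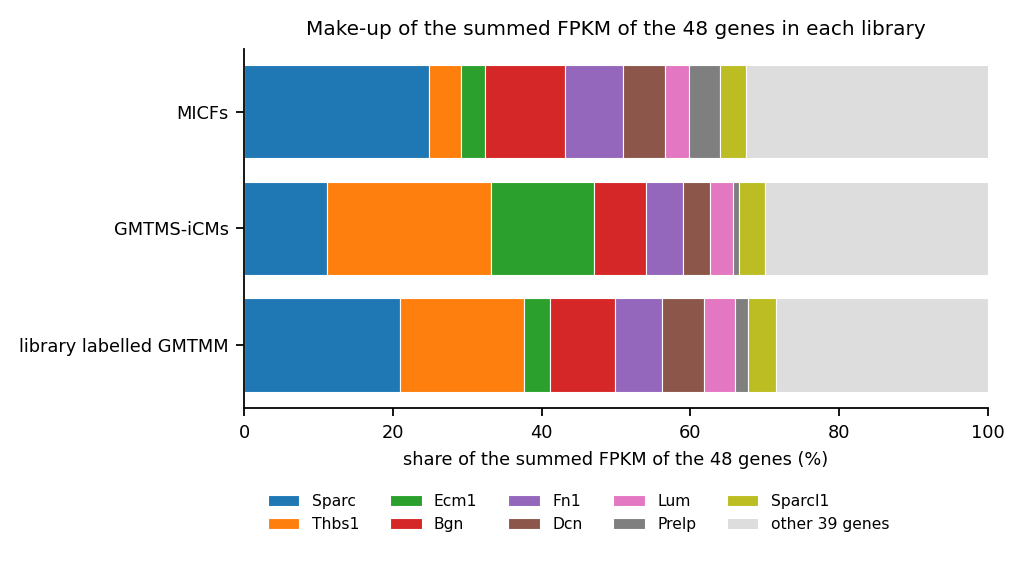
Share of the summed FPKM of the 48 genes taken by 9 named genes and by the other 39, as stacked bars from 0 to 100% for each library. Thbs1 and Ecm1 widen from 4.28% and 3.18% in MICFs to 22.0% and 13.8% in GMTMS-iCMs, while Sparc narrows from 24.9% to 11.2%.

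The second comparison set the GMTMM-labelled library against MICFs. Here 42 of the 46 genes were within the limit, 1 was lower and 3 were higher, while 5.09% of all genes tested were lower and 8.31% were higher, so the number called was near that background. The median difference was 0.21, against -0.08 for all genes tested, and the median FPKM ratio was 1.49. FPKM was above MICFs in 40 of the 46 genes, but with quantile normalization only 31 were above 0, so the direction of these small differences depended on the scaling. The genes counted as higher were Thbs1 (2.17, 6.99-fold by FPKM, 6.86 to 7.13), Mfap4 (1.20, 2.69-fold, 2.30 to 3.15) and Postn (1.06, 2.92-fold, 2.82 to 3.02), each in all 8 scalings. Prelp was counted as lower (-1.02), but passed the limit in 3 of 8 scalings (-1.03 to -0.43). Postn lay just past the upper limit and Olfml2b (0.81) just short of it.

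By role, the medians in the GMTMM-labelled library against MICFs were 0.27 for the adhesive genes, 0.24 for the leucine-rich proteoglycans with versican, 0.19 for the elastic fibre genes, -0.11 for the basement membrane and 0.45 for the other glycoproteins. Efemp1, Fbln1 and Lum had FPKM ratios of 2.45 (2.33 to 2.59), 2.45 (2.36 to 2.54) and 2.40 (2.30 to 2.49) over MICFs and were counted as higher in 3 of 8 scalings. The lowest FPKM ratio was that of Smoc2, 2.28-fold lower on 216 and 77 counts (1.75 to 2.99), with a difference of -0.65 that was within the limit but passed it in 5 of 8 scalings (-1.47 to -0.65). Thbs4 had a ratio of 14.8, with an interval of 2.19 to 632 that reflects its 1 count in MICFs.

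The third comparison set both transduced libraries against each other. In GMTMS-iCMs 41 of the 46 genes were lower than in the GMTMM-labelled library and 0 were higher, with 11.1% and 9.01% of all genes tested. The median difference was -2.50, against 0.10 for all genes tested, and the median FPKM ratio was 8.55-fold lower. Sparc had the largest difference (-4.03, 13.8-fold, 13.3 to 14.3), followed by Tnc (-4.01, 21-fold, 19.0 to 23.2) and Efemp1 (-3.82, 17.1-fold, 14.7 to 19.9). Mfap5 had the largest fold (23.3-fold, 15.7 to 36.3). Postn was 12.8-fold lower (11.8 to 13.8) and Thbs1 5.58-fold lower (5.46 to 5.70). The genes within the limit were Lama2 (-0.99), Cilp (-0.96), Ecm1 (-0.91), Smoc2 (-0.30) and Comp (0.42). Of these, Lama2 passed the limit in 6 of 8 scalings (-1.58 to -0.99), Cilp in 5 (-3.09 to -0.96), Ecm1 and Smoc2 in 2 each and Comp in 0. The number of lower genes was 41 to 45 over the scalings, and 1548 to 2451 among all genes tested. The 3 comparisons share libraries, so their values are not independent of each other.

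**Figure D4:**
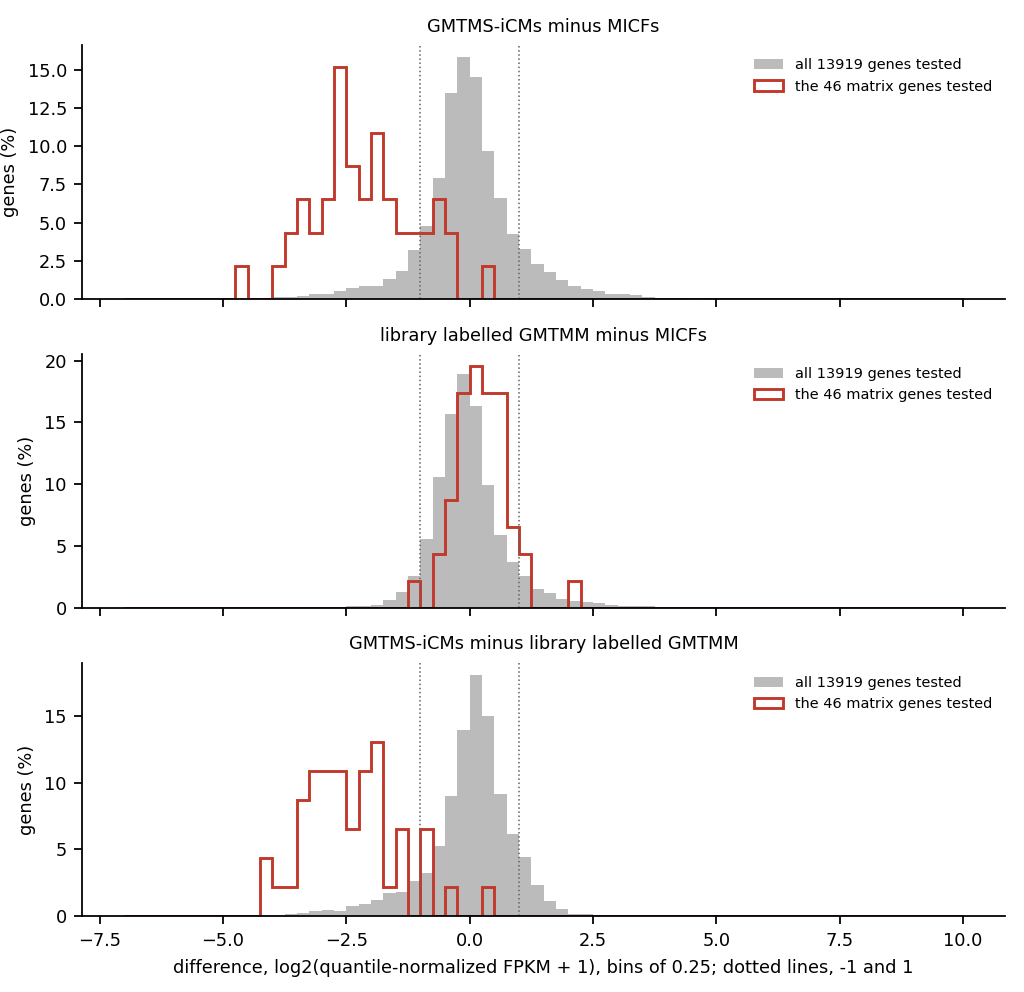
Distribution of differences on the log2 scale in each of the 3 comparisons, in percent of genes per bin of 0.25, for all 13919 genes tested (grey) and the 46 matrix genes tested (red line). The red line lies left of the grey where GMTMS-iCMs are compared (medians -2.28 and -2.50) and overlaps it for the GMTMM-labelled library against MICFs (0.21).

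Some members lie near each other in the genome, on the GRCm38 coordinates of the deposited table. Ecm2 and Aspn lie 11.7 kb apart on chromosome 13, and Ogn lies 40.5 kb beyond Aspn, with Omd (osteomodulin, 7, 0 and 12 counts, below the FPKM limit and named for its position after its values were seen) between them. Ecm2, Aspn and Ogn were lower in GMTMS-iCMs (-1.18, -1.58 and -2.43). Dcn and Lum lie 47.0 kb apart on chromosome 10 and both were lower (-3.25 and -2.65). Since 38 of the 46 members tested were lower, neighbours that were lower together were not unusual. Prelp and Fmod lie 116 kb apart on chromosome 1, and the ratio of Prelp to Fmod was 22.4 in MICFs (19.9 to 25.3), against 8.95 in GMTMS-iCMs (5.87 to 14.3) and 15.6 in the GMTMM-labelled library (13.7 to 17.8). Smoc2 and Thbs2 lie 261 kb apart on chromosome 17, and Thbs2 was lower while Smoc2 was within the limit. By FPKM ratio, Smoc2 was 4.22-fold lower in GMTMS-iCMs than in MICFs (2.92 to 6.29), and it passed the limit in 6 of 8 scalings.

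Other matrix genes were examined as context. For GMTMS-iCMs against MICFs, the background was 10.7% lower and 12.1% higher among all genes tested. Of 24 collagen chains, 20 were tested, and 17 were lower in GMTMS-iCMs than in MICFs and 0 higher (median -2.97). Their share of counts was 2.37%, 0.228% and 3.32% in MICFs, GMTMS-iCMs and the GMTMM-labelled library. Col3a1, the fibrillar chain with the highest FPKM, had 648, 71.3 and 1025, and Col18a1, a basement membrane chain, had the largest difference (-4.52). Of 81 other matrix glycoproteins and proteoglycans, 51 were tested, and 29 were lower and 4 higher (median -1.22), so this list was more mixed than the 48 genes. Mmrn2, a glycoprotein of endothelial cells, had the largest negative difference (42.0, 0.623 and 35.4 FPKM, -5.03). Igfbp7 had the highest FPKM of the list in MICFs and the GMTMM-labelled library (731, 121 and 1270, -3.20), and Gas6 had the highest in GMTMS-iCMs (607, 557 and 568, -0.85). The largest positive difference was that of Srgn (serglycin, the granule proteoglycan of blood cells), with FPKM of 32.5, 312 and 132 (2.66).

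Of 27 receptors and surface partners of matrix glycoproteins, 15 were lower in GMTMS-iCMs than in MICFs and 4 were higher. Among all genes tested 10.7% were lower and 12.1% higher, so the number of higher receptors was near that background. Itga8, the alpha chain of a fibronectin receptor, had the largest negative difference (10.8, 1.15 and 10.1 FPKM, -2.47). Cd44, the hyaluronan receptor, had FPKM of 10.5, 139 and 72.8 (3.33), and Sdc4 (syndecan 4, a fibronectin co-receptor) had 67.4, 1019 and 573 (3.20). Both were higher in each transduced library than in MICFs.

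Markers of the cell types that such cultures could hold were compared in the same libraries, and the lists did not all move with the matrix genes. The background for GMTMS-iCMs against MICFs was again 10.7% lower and 12.1% higher. The 12 endothelial markers took 0.287% of counts in MICFs, against 0.00662% in GMTMS-iCMs and 0.173% in the GMTMM-labelled library, and 12 of 12 were lower in GMTMS-iCMs than in MICFs. None was at 0, and Cdh5 (VE-cadherin) had FPKM of 204, 4.02 and 147. The 12 fibroblast markers outside the matrix took 0.314%, 0.133% and 0.418%, and 9 of 12 were lower. Among them Thy1 had FPKM of 44.7, 3.38 and 60.7 (-3.66), Tcf21 26.3, 1.97 and 30.0 (-3.37), and Vim 410, 294 and 694 (-1.30). By deposited FPKM, Vim differed by less than this scale shows. Vim also held 294 of the summed FPKM of 316 of this list in GMTMS-iCMs. The median fibroblast marker was 4.10-fold lower there than in MICFs by FPKM. Smooth muscle and pericyte markers (10 genes) took 0.188%, 0.113% and 0.286%, with 5 lower and 2 higher. Of the 12 macrophage markers 0 were lower, 3 were higher and 9 were within the limit in GMTMS-iCMs against MICFs (median 0.35). By deposited FPKM, however, 12 of 12 were above MICFs, with a median ratio of 2.11. Lyz2, at FPKM of 6135 and 11353, had a difference of 0 after quantile normalization. In the GMTMM-labelled library against MICFs 2 were lower and 1 was higher (median -0.62), beside 5.09% and 8.31% of all genes tested. FPKM there was below MICFs in 8 of the 12 and above in 4, with a median ratio of 0.938. Cd14, with FPKM of 98.1, 1390 and 631, had the largest positive difference of the list in both comparisons. The part of these cell types in the matrix differences was not tested.

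**Figure D5:**
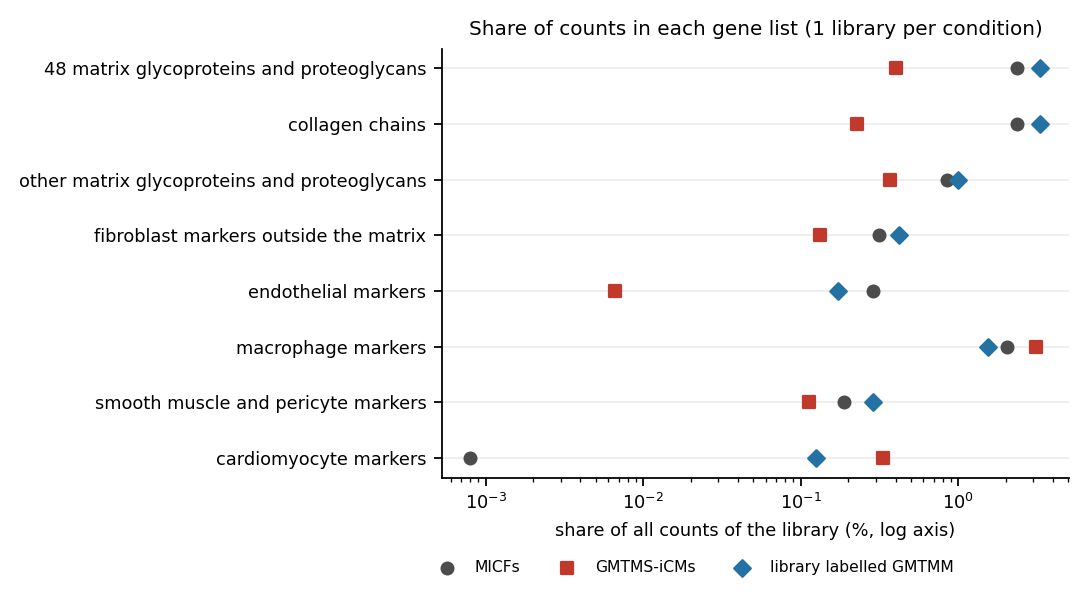
Share of all counts taken by each gene list, in percent on a log axis, with a circle for MICFs, a square for GMTMS-iCMs and a diamond for the GMTMM-labelled library. The 48 matrix genes (2.38%, 0.400% and 3.32%), the collagens, the fibroblast and the endothelial markers are lowest in GMTMS-iCMs, where macrophage and cardiomyocyte markers are highest.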

How the data were processed

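RNA-seq was measured in 3 libraries, 1 per group, grouped by sample title; the fibroblast column, cMF, was matched to MICFs, since every other column is named for a cocktail. The authors deposited raw counts per gene and FPKM, whose gene lengths the table also gives. HISAT2 2.0.5 is named in the submitters' processing notes; the counting tool and its use of strand are not given in the sources used here. The notes name mm9, but 46 of 48 genes have the start and end of GENCODE M21, so coordinates are given as GRCm38. Deposited FPKM used library sizes of 14389264, 9287868 and 11680913, which follow DESeq2 size factors (1.26, 0.811 and 1.02), not the totals.

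Quantile normalization of the FPKM over the 3 libraries came first and log2(FPKM + 1) second, the order of the study's methods. The 13919 genes that reached FPKM of 1 in any library were compared, and a difference over 1, the study's filter, was counted. With 1 library per group there is no test and no p-value. Folds are ratios of deposited FPKM with exact Clopper-Pearson 95% intervals on counts, and 3 counts were the floor. GENCODE M21 gave exon overlap with other genes and 50-base words shared with them. All 48 members may be named; all libraries are given for members with FPKM of at least 100, the 5 largest changes each way in each comparison, and those opposite to their role group. From other lists, leading genes by FPKM or difference were named. The 8 scalings were this one, log2 before quantile normalization, none, a pseudocount of 0.1, CPM and TMM (prior count of 2), DESeq2 size factors and counts thinned to the smallest library. The first and second nearly coincide, as do CPM and thinned counts. FPKM without quantile normalization and DESeq2 size factors share their library sizes. Members and lists were chosen with earlier results of these data known. The steps were tested on simulated data. The alternatives used DESeq2 1.42.0 and edgeR 4.0.16 in R 4.3.3, and the rest used SciPy 1.17.1, pandas 2.3.3 and numpy 2.4.6 in Python 3.11.15, with figures by matplotlib 3.10.9.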

Additional observations from a re-analysis of the deposited data

Results flagged for a closer look

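Postn and Mfap4 moved past the limit in opposite directions in the 2 transduced libraries. Postn differed from MICFs by -2.33 in GMTMS-iCMs and by 1.06 in the GMTMM-labelled library. Mfap4 differed by -1.31 and 1.20, on counts of 234 (MICFs), 48 (GMTMS-iCMs) and 511 (the GMTMM-labelled library). Both genes kept these directions and their side of the limit in all 8 scalings. With 1 library per condition, the difference between the effects was not tested. Opposite calls of this kind were not counted among all genes tested, so no background share stands beside these genes. Samples far from their group could not be looked for, since no group holds over 1 sample.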

How the results depend on the processing

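No paired analysis was possible because each group holds 1 library, and for the same reason no replicate could be left out. Differences against the GMTMM-labelled library carry the doubt about its label. The count of 38 lower genes in GMTMS-iCMs against MICFs was 38 to 43 over the 8 scalings. Among all 13919 genes tested, the lower genes were 1485 on the main scale and 1479 to 3619 over the 8 scalings. When only GMTMS-iCMs and MICFs were quantile-normalized, the count was 38 with a median of -2.24. That alternative was chosen after seeing the data. Depth limits genes such as Thbs4, Cilp, Aspn and Fbn2, which had under 10 counts in GMTMS-iCMs.

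The median of GMTMS-iCMs against MICFs (-2.28) was -2.00 without quantile normalization, -2.55 with a pseudocount of 0.1, -2.89 with CPM, -2.51 with TMM and -2.89 with thinned counts. For GMTMS-iCMs against the GMTMM-labelled library the median (-2.50) was -2.86 with a pseudocount of 0.1, -3.17 with CPM, -3.07 with TMM, -3.07 with DESeq2 size factors and -3.18 with thinned counts. For the GMTMM-labelled library against MICFs the median (0.21) was 0.53 on FPKM that were not quantile-normalized, 0.54 with TMM and 0.57 with DESeq2 size factors. Under each, 8 matrix genes in place of 3 were higher. Among all genes tested, 1313, 1782 and 1869 were then higher in place of 1156, in the same order. With a difference over 2, 1 matrix gene was higher. Lower genes there (1) were 0 without quantile normalization and with a difference over 2, and 2 with a pseudocount of 0.1. The share of the 48 genes in MICFs, GMTMS-iCMs and the GMTMM-labelled library was 1.38%, 0.227% and 1.85% of summed FPKM, and 1.66%, 0.261% and 1.99% of counts without the 10 most abundant genes of any library. The causes were not tested.

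CPM moved the median of all genes tested against MICFs to -0.42 for GMTMS-iCMs and -0.26 for the GMTMM-labelled library. The higher calls among all calls then were 29.5% in place of 53.2%, and 39.0% in place of 62.0%. Of 138 differences of single genes under 966 alternatives, 425 stayed within the counting interval, 541 moved and 0 counted as lower or higher turned sign.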
